A study of Mus musculus with 16 samples.

Results

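The 32 mouse genes described here encode the enzymes, transporters and receptors by which intestinal cells handle foreign compounds: 12 cytochromes P450, 5 carboxylesterases, 6 conjugating enzymes, 4 other oxidoreductases, 3 efflux transporters and 2 nuclear receptors. They were listed by symbol, matched through Ensembl identifiers, and all 32 were found among the 55359 genes of the count table. The list was drawn up by function, not by how the genes behaved in these libraries, although earlier results of the same data were known when it was made.

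Total RNA from the duodenum and ileum of 8 adult male C57BL/6N mice on standard chow was sequenced, 16 libraries in all. All mice were Neurog3 f/f, that is, both copies of Neurog3, the transcription factor that starts enteroendocrine cell formation, carried sites for deletion. In 4 mice, called mutants, the Villin-CreERT2 transgene supplied a tamoxifen-activated recombinase under a promoter of the intestinal epithelium; the other 4, called controls, had no transgene. Each mouse gave both tissues, 18 weeks after tamoxifen. The labels state the tamoxifen time once for all mice without saying whether controls were dosed. Effects of the transgene, or of tamoxifen if controls were not dosed, cannot be told apart from those of Neurog3 deletion here. The layers of the gut wall that were taken are not described. Per-library values are in CPM, counts relative to library size after TMM scaling over all 16 libraries. They are always listed in the order NF17, NF29, NF32 and NF152 for controls and NFVCT27, NFVCT38, NFVCT153 and NFVCT190 for mutants.

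Foreign compounds absorbed by enterocytes are first oxidised or hydrolysed, chiefly by cytochromes P450 and carboxylesterases, then conjugated to glutathione, glucuronic acid or sulfate, and finally pumped out of the cell by ATP-driven efflux transporters. The nuclear receptors PXR (Nr1i2) and CAR (Nr1i3) bind foreign chemicals and bile acids and switch on Cyp3a, Cyp2b and Cyp2c genes, the aryl hydrocarbon receptor switches on Cyp1a1, and NRF2 switches on Nqo1 and several glutathione transferases. In the small intestine these genes are expressed mainly in absorptive cells of the villus, and those of the enzymes are typically strongest toward the stomach end.

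Start-site sequence is shown for 4 cytochrome genes described below. They include Cyp2c55, the member called lower in both tissues, and Cyp3a11, a leading target of PXR. The others are Cyp3a25, a relative of Cyp3a11, and Cyp1a1, the classic target of the aryl hydrocarbon receptor. Each window runs from 250 bases before to 50 bases after the RefSeq transcript start on GRCm38.p6, printed 5′ to 3′ on the gene's strand, with motif matches in capitals. The windows are chr19:39006769-39007068 on the plus strand for Cyp2c55, chr5:145879805-145880104 on the minus strand for Cyp3a11, chr5:146009568-146009867 on the minus strand for Cyp3a25 and chr9:57697363-57697662 on the plus strand for Cyp1a1.
Cyp2c55: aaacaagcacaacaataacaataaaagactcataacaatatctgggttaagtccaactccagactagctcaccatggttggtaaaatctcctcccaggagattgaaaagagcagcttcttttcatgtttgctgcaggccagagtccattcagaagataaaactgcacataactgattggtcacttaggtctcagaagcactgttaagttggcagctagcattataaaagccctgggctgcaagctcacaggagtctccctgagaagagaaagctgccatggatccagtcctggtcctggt
Cyp3a11: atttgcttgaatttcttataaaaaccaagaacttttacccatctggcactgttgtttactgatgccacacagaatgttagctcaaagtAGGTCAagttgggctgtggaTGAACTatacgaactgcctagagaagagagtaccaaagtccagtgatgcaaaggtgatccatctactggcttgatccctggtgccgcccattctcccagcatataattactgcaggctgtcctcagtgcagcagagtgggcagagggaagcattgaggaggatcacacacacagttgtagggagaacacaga
Cyp3a25: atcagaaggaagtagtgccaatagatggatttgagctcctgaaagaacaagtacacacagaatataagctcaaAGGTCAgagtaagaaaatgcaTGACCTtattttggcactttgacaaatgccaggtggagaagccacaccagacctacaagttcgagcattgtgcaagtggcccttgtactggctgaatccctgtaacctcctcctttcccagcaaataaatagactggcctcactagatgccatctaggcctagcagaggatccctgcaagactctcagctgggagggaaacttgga
Cyp1a1: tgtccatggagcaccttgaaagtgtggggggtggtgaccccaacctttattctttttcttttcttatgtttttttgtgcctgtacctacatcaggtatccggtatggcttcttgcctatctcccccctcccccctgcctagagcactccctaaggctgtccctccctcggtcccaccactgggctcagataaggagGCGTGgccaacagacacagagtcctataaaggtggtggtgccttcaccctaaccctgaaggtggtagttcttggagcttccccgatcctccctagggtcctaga

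Motifs searched on both strands were the nuclear receptor half-sites AGGTCA and AGTTCA, the core GCGTG bound by the aryl hydrocarbon receptor and the core TGACNNNGC of the antioxidant response element bound by NRF2. The Cyp3a11 window holds AGGTCA 162 bases and AGTTCA, on the opposite strand, 142 bases before the start. The Cyp3a25 window holds AGGTCA 177 bases before the start and again, on the opposite strand, 156 bases before it. The Cyp1a1 window holds GCGTG 54 bases before the start, and the Cyp2c55 window holds none of these letters. No match overlaps another in these 4 windows. RefSeq windows were matched for 29 members, 35 windows in all, with no entry for Cyp2d34, Ces1f and Gsta4. Of the 29 members, 8 had a window with AGGTCA, 4 with AGTTCA, 7 with GCGTG and 4 with TGACNNNGC, where a member may have several windows, some of them shifted copies of each other. Counted by window, 10, 4, 8 and 4 of the 35 held these letters in the same order. Over all 32851 mouse windows, also counted by window, the shares were 16.3%, 14.0%, 32.4% and 12.4%. A match describes the letters and does not mark a binding site.

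Total counts per library ran from 8213889 to 35076714. Neurog3 had 0 counts in all 8 mutant libraries, against 12 to 37 counts in the duodenal and 8 to 27 in the ileal controls. Summed levels of 10 small intestinal epithelial markers were high in every library, from 10816 to 27778 CPM in the duodenum and from 15755 to 20977 CPM in the ileum. Of 12 hepatocyte markers, 5 to 9 had no count in a given library and the sum was at most 29.3 CPM. Markers of pancreatic acinar cells summed to between 20125 and 221870 CPM in duodenal libraries, with no separation by genotype (exact permutation p = 0.429, two-sided). Enteroendocrine markers were 10 genes of the cells that Neurog3 starts, Neurog3 itself among them. They summed to 351 to 522 CPM in duodenal controls and 4.32 to 19.7 CPM in duodenal mutants. In the ileum they summed to 256 to 389 CPM in controls and 3.496 to 5.03 CPM in mutants. Called lower were 6 of 9 tested in the duodenum and 10 of 10 in the ileum, where 0.299% and 1.51% of all genes were. Each ileal mutant had 5 to 8 of the 10 at 0 counts. Genes at 0 there passed the filter on low counts through the controls, so only a fall could have been found for them. The duodenal colonocyte score was 1.16 ± 0.25 in controls and 0.63 ± 0.15 in mutants (SD, n = 4 each, exact permutation p = 0.0286), with overlapping sums and none of 3 genes tested called. Markers of T and NK cells summed to 241 to 327 CPM in duodenal controls and 52.1 to 139 CPM in duodenal mutants, and to 117 to 199.5 CPM and 34.96 to 153.3 CPM in the ileum, with lower scores in mutants of both tissues (exact permutation p = 0.0286 each, the smallest that 4 against 4 allows). In such bulk samples, fewer cells of a type and less RNA per cell cannot be told apart.

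Mutants had lower levels of several of these genes than controls, among them a cytochrome in both tissues and carboxylesterases, a glutathione transferase and efflux pumps in the ileum. The ileal calls of the cytochrome, Cyp2c55, of the pump Abcb1a and of the oxidoreductase Aldh1a1 were lost in most fits that left out 1 library, as described below. In the duodenum 1 of 30 members tested was called, Cyp2c55, which fell, where 0.394% of all 14703 genes were called (0.299% lower and 0.0952% higher). Of the 30, 27 lay below 0, with a median log2 fold change of -0.65 against 0.00 over all genes. Without control NF29 the members' median was -0.35. In the ileum 10 of 31 members tested were called, where 3.28% of 14951 genes were. Of these 10, 8 fell (Cyp2c55, Ces1f, Ces1g, Ces2a, Gstm3, Abcb1a, Abcg2 and Aldh1a1), where lower calls made up 1.51% of all genes. The 2 that rose, Cyp2d9 and Cyp2d34, passed the filter on low counts through the mutants alone, so only a rise could have been found. Higher calls made up 1.77% of all genes. The median over the 31 members was -0.36, against -0.01 over all genes. It was -0.64 without mutant NFVCT38. Scaled to equal epithelial marker levels, a setting described below, the members' median was -0.13 in the ileum and -0.47 in the duodenum. Over all genes, the median in those fits was 0.21 and 0.19. Calls were made where the adjusted p was under 0.05 (edgeR's quasi-likelihood F test with Benjamini-Hochberg adjustment over all genes tested). Within a tissue, p-values measure the spread between these animals. Log2 changes are fitted log2 ratios of mutants over controls.

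**Figure D1:**
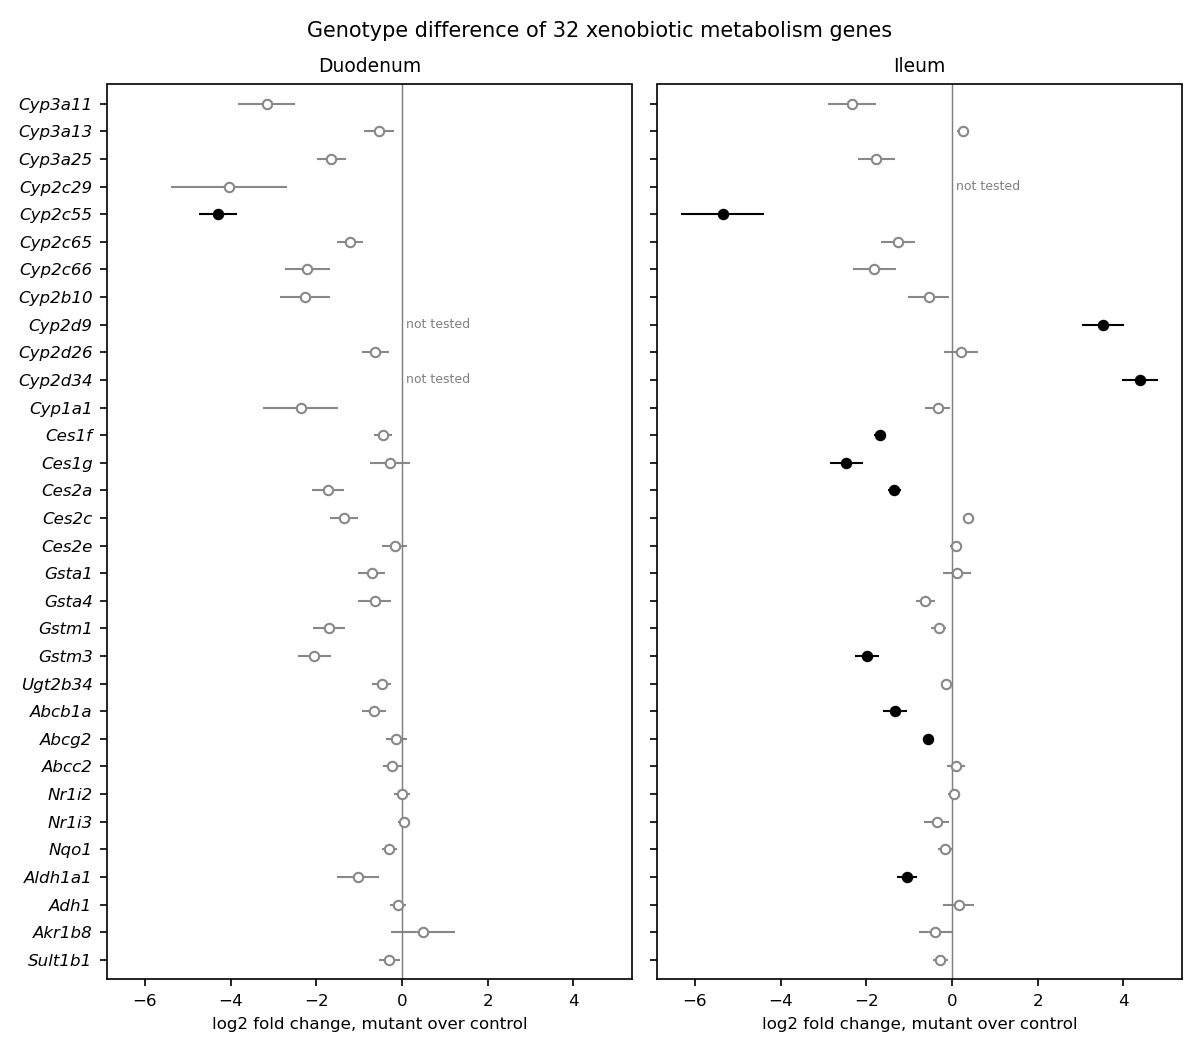
Log2 fold change of mutants over controls for each gene (points) with its standard error (bars) in the duodenum and the ileum, fitted on 4 against 4 libraries; filled points passed the test at an adjusted p under 0.05. Filled points are 1 in the duodenum and 10 in the ileum, with Cyp2d9 and Cyp2d34 at 3.53 and 4.39 on the right and Cyp2c55 at -4.29 and -5.35 on the left.

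Every mutant lay below every control for 10 members in the duodenum, where 2.9% of all genes were separated in that direction, and for 10 in the ileum, where 4.89% were. In the duodenum these were Cyp3a11, Cyp3a25, Cyp2c55, Cyp2c65, Cyp2c66, Cyp2b10, Ces2a, Ces2c, Gstm1 and Gstm3, and 13 of the 30 members tested had an unadjusted p under 0.05, as did 8.71% of all genes. No member had every duodenal mutant above every control, as 2.79% of all genes did. In the ileum Cyp3a11 and Cyp3a25 joined the 8 that fell, and 16 of 31 had an unadjusted p under 0.05, as did 15.8% of all genes. These 16 include Cyp2d9 and Cyp2d34, for which only a rise could have been found. DESeq2's Wald test called 11 members lower in the duodenum: the 10 separated ones and Cyp2c29. Of all 14703 genes it called 310 there, 191 of them lower. In the ileum it called 14 members, the 10 called by edgeR and Cyp3a11, Cyp3a25, Cyp2c65 and Cyp2c66, all 4 lower. Cyp2d9 and Cyp2d34 are among these 14 as well. Of all 14951 genes it called 875 in the ileum, 411 lower and 464 higher.

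The duodenal libraries differed widely within a genotype. Control NF29 was the highest control for 30 of the 32 members and NF32 the lowest for 27, while mutant NFVCT190 was the lowest mutant for 24 and NFVCT27 the highest for 24. NF29 also had the highest epithelial marker sum of the duodenum, 27778 CPM, and NFVCT190 the lowest, 10816 CPM, together with the highest acinar sum, 221870 CPM. The duodenal identity markers, a list of 7 genes, scored 7.86 ± 0.37 in controls and 7.30 ± 0.13 in mutants on a log2 scale (SD, n = 4 each, exact permutation p = 0.0286), all 7 below 0 and none called. With the acinar score as a covariate Cyp2c55 was again the only member called. When libraries were scaled to equal epithelial marker levels, 94 of 14703 genes were called, 53 of them lower. This setting was added after the data were seen and moved the median of all genes by 0.19. With it, 7 members were called lower: Cyp2c55, Cyp3a25, Cyp2c65, Ces2a, Ces2c, Gstm1 and Gstm3. The part of position along the duodenum in these differences was not tested.

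In the ileum, smooth muscle markers rose in mutants, summing to 3299 to 4642 CPM in controls and 5251 to 7075 CPM in mutants (exact permutation p of the score = 0.0286), with 6 of the 10 genes called. Epithelial markers scored 10.13 ± 0.11 in controls and 9.92 ± 0.11 in mutants (SD, n = 4 each, exact permutation p = 0.0286). The 7 ileal identity markers summed to 6384 to 8609 CPM in controls and 3861 to 4817 CPM in mutants (exact permutation p of the score = 0.0286), with 1 called lower. The part of these markers in the changes of the members was not tested beyond the following fits. With the smooth muscle score as a covariate, which separates the genotypes by itself, 3 members stayed called: Cyp2d34, Ces1f and Gstm3. The calls over all genes went from 490 to 22 in that fit, while the members' median log2 change was -0.43, against -0.36 without the covariate. Scaled to equal epithelial marker levels, which moved the median of all genes by 0.21, the ileum had 7 members lower, the same 8 without Abcg2, and 4 higher, with Cyp3a13 and Ces2c added.

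Cyp2c55 (ENSMUSG00000025002), an enzyme of the Cyp2c family that oxidises arachidonic acid, fell in both tissues and had the largest fold change of the members that fell in the ileum. In the duodenum Cyp2c55 stood at 123, 126, 63.4 and 70.5 CPM in controls and at 7.78, 4.98, 5.10 and 1.58 CPM in mutants. The mutant mean was 5.07% of the control mean and the groups were far apart (log2 change -4.29, SE 0.44, adjusted p = 0.00758). Leaving out mutant NFVCT38 raised its adjusted p to 0.0531; it was called in the other 7 fits that left out 1 library. In the ileum Cyp2c55 stood at 140.4, 9.34, 81.0 and 96.4 CPM in controls and at 2.88, 2.31, 2.71 and 0.704 CPM in mutants. Control NF29 was far below the other controls yet still above every mutant (log2 change -5.35, SE 0.97, adjusted p = 0.0436). That ileal call was lost in 7 of the 8 fits that left out 1 library, all but the one without NF29, with an adjusted p of up to 0.139, and with limma-voom (0.0613).

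Cyp3a11 and Cyp3a25 belong to the Cyp3a family, which oxidises many drugs and steroids. Duodenal Cyp3a11 stood at 1224, 2786, 785 and 1052 CPM in controls and at 358, 115, 128 and 55.8 CPM in mutants. Every mutant was under the lowest control, but the spread within each group was several-fold (log2 change -3.16, SE 0.66, adjusted p = 0.115). Ileal Cyp3a11 stood at 194, 100.1, 105 and 166 CPM in controls and at 29.2, 56.3, 14.2 and 12.1 CPM in mutants, again without overlap (log2 change -2.33, SE 0.57, adjusted p = 0.1002). Cyp3a11 passed the test without mutant NFVCT27 in the duodenum (adjusted p = 0.0247) and without mutant NFVCT38 in the ileum (adjusted p = 0.0355).

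Cyp3a25 was separated in both tissues as well. In the duodenum its controls held 190.1, 309, 145 and 181 CPM and its mutants 96.5, 46.6, 84.4 and 39.0 CPM (log2 change -1.65, SE 0.33, adjusted p = 0.0919). In the ileum its controls held 120.4, 48.9, 86.8 and 143 CPM and its mutants 15.2, 42.9, 23.0 and 35.6 CPM (log2 change -1.77, SE 0.43, adjusted p = 0.0997). Cyp3a25 passed the test in the ileum without control NF29, the lowest control there (adjusted p = 0.0495). Cyp3a13, the third Cyp3a member, behaved otherwise: its log2 fold change was -0.54 (SE 0.35, adjusted p = 0.778) in the duodenum and 0.25 (SE 0.13, adjusted p = 0.388) in the ileum, with overlapping groups. With all libraries, edgeR called neither Cyp3a11 nor Cyp3a25 in either tissue. DESeq2's Wald test called both in the duodenum (adjusted p = 0.000284 and 1.72e-05) and in the ileum (0.00189 and 0.00216), and limma-voom called both in the ileum only (0.00807 and 0.0250).

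Cyp2c65 and Cyp2c66, close copies of each other, showed the same order of groups in the duodenum. Duodenal Cyp2c65 stood at 439.9, 651, 329 and 483 CPM in controls and 270.3, 249, 216 and 98.7 CPM in mutants (log2 change -1.21, SE 0.30, adjusted p = 0.154). Duodenal Cyp2c66 stood at 131, 285, 80.8 and 151 CPM in controls and 42.0, 54.5, 31.4 and 13.5 CPM in mutants (log2 change -2.21, SE 0.52, adjusted p = 0.188). In the ileum both overlapped, since control NF29 lay at 44.3 CPM of Cyp2c65 and mutant NFVCT38 at 64.2 CPM, with log2 fold changes of -1.26 (adjusted p = 0.179) for Cyp2c65 and -1.81 (adjusted p = 0.127) for Cyp2c66. Without NF29, ileal Cyp2c65 passed the test (adjusted p = 0.0199), and without NFVCT38, ileal Cyp2c66 did (adjusted p = 0.00601).

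Cyp2c29, another Cyp2c enzyme, was high in 1 duodenal control. Its controls held 10.3, 128, 1.83 and 21.8 CPM and its mutants 3.43, 2.81, 2.998 and 0.211 CPM, so that NF32 fell among the mutants (log2 change -4.04, SE 1.35, adjusted p = 0.423). Without NF29 the log2 change was -2.26 (adjusted p = 0.661). In the ileum Cyp2c29 was too low to test, with 24, 17, 1 and 30 counts in controls and 1, 3, 0 and 1 counts in mutants.

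Cyp2b10, the classic CAR target, held 213, 481, 112 and 242 CPM in duodenal controls and 80.3, 38.9, 79.7 and 20.6 CPM in duodenal mutants. The groups were separate, with a wide spread among controls (log2 change -2.27, SE 0.58, adjusted p = 0.234). Ileal Cyp2b10 overlapped (log2 change -0.55, SE 0.48, adjusted p = 0.675). Cyp1a1 held 23.4, 112, 21.1 and 66.7 CPM in duodenal controls and 24.5, 1.99, 10.4 and 7.37 CPM in duodenal mutants; mutant NFVCT27 lay above 2 controls (log2 change -2.36, SE 0.88, adjusted p = 0.492). In the ileum Cyp1a1 was under 3 CPM in every library (log2 change -0.34, adjusted p = 0.664).

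The 3 Cyp2d genes did not move alike. Cyp2d9 (ENSMUSG00000068086), a testosterone hydroxylase of male mouse liver, and Cyp2d34 (ENSMUSG00000094559) rose in the ileum from almost nothing. Cyp2d9 had 4, 3, 0 and 4 counts in ileal controls and 8, 32, 19 and 39 counts in ileal mutants, or 0.146 ± 0.111 and 1.79 ± 0.58 CPM (SD, n = 4 each; log2 fold change 3.53, SE 0.49, adjusted p = 0.00109). Cyp2d34 had 2, 2, 2 and 3 counts in ileal controls and 25, 34, 18 and 75 counts in ileal mutants, or 0.141 ± 0.051 and 2.77 ± 0.94 CPM (log2 change 4.39, SE 0.43, adjusted p = 5.66e-05). Every ileal mutant was above every control for both, as were 4.98% of all genes. With so few counts in controls, both genes passed the filter on low counts through the mutants alone, so that only a rise could have been found. Cyp2d9 fell under that filter in 2 of the 8 fits that left out 1 library. In the duodenum Cyp2d9 had 13 counts over the 4 controls and 6 over the 4 mutants, and Cyp2d34 0 and 3, so neither was tested.

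Hepatocyte markers summed to 29.3, 26.1, 12.9 and 9.31 CPM in the 4 ileal mutants and to 9.22 to 14.1 CPM in ileal controls (exact permutation p of the score = 0.114). Their part in the Cyp2d9 and Cyp2d34 values was not tested. Cyp2d26, the abundant Cyp2d member, overlapped in both tissues, with log2 fold changes of -0.62 (adjusted p = 0.657) in the duodenum and 0.20 (adjusted p = 0.881) in the ileum. The sum over 8 Cyp2d genes ran from 31.5 to 101 CPM in ileal controls and from 63.5 to 102.5 CPM in ileal mutants, so the rise of Cyp2d9 and Cyp2d34 was small beside the family's total.

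**Figure D2:**
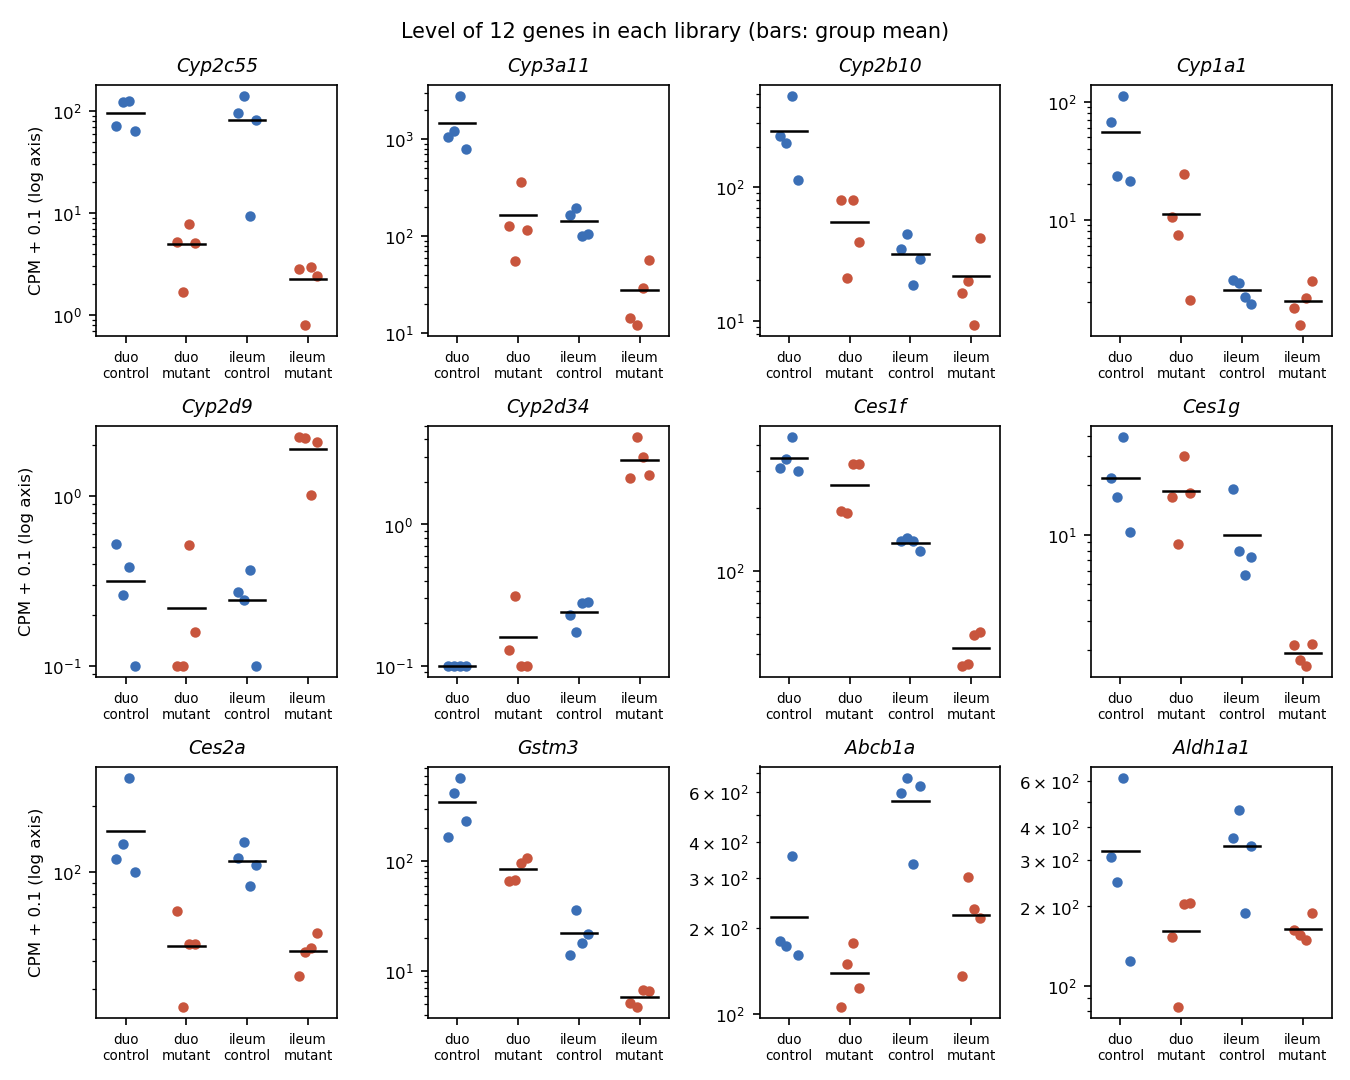
CPM plus 0.1 on a log axis for 12 of the genes in each library (points) of the 4 groups, with the group mean as a bar, 4 libraries per group. Cyp2c55 points of the mutants lie below those of the controls in both tissues, ileal Ces1f controls sit between 124 and 144 CPM with mutants between 35.1 and 51.2 CPM, and Cyp2d9 and Cyp2d34 are near the floor outside ileal mutants.

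Carboxylesterases, which cleave ester drugs and also lipid esters, held 3 of the 8 members that fell in the ileum. Ces1f (ENSMUSG00000031725) had the smallest adjusted p of all members there: 144, 138, 124 and 139 CPM in controls and 49.4, 51.2, 35.1 and 35.8 CPM in mutants. Mutants kept 31.4% of the control mean, with little spread in either group (log2 change -1.68, SE 0.13, adjusted p = 6.61e-06). Duodenal Ces1f stood at 343, 438, 300.3 and 309 CPM in controls and 327, 324, 193 and 189 CPM in mutants; NFVCT27 and NFVCT38 lay among the controls and the other mutants below them (log2 change -0.44, SE 0.22, adjusted p = 0.625).

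Ces1g (ENSMUSG00000057074), a lipid hydrolase best known from liver, fell in the ileum from 7.84, 5.61, 7.21 and 19.0 CPM in controls to 1.496, 2.06, 2.03 and 1.62 CPM in mutants. Control NF152 was far above the other controls, but every control exceeded every mutant (log2 change -2.47, SE 0.39, adjusted p = 0.00789). Without NF152 the log2 fold change was the smallest of the fits that left out 1 library, -1.95, and Ces1g was called in all 8. Duodenal Ces1g overlapped (log2 change -0.28, SE 0.47, adjusted p = 0.954).

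Ces2a (ENSMUSG00000055730), of the carboxylesterase family dominant in intestine, fell in the ileum and lay lower without overlap in the duodenum. Ileal Ces2a went from 137, 86.6, 108 and 116 CPM in controls to 45.6, 53.1, 34.1 and 43.8 CPM in mutants (log2 change -1.35, SE 0.15, adjusted p = 0.000161), and was called in all 8 fits that left out 1 library. Duodenal Ces2a stood at 134, 266, 101 and 115 CPM in controls and 47.6, 47.5, 67.3 and 24.7 CPM in mutants, separated but with control NF29 well above the rest (log2 change -1.73, SE 0.38, adjusted p = 0.128).

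Ces2c, its close relative, had values on opposite sides of 0 in the 2 tissues. Duodenal Ces2c stood at 252, 475, 197 and 329.9 CPM in controls and 166, 133, 132 and 64.8 CPM in mutants, with every mutant below every control (log2 change -1.35, SE 0.32, adjusted p = 0.151). Ileal Ces2c stood at 138, 106, 109 and 109 CPM in controls and 173, 146, 143 and 135 CPM in mutants; only control NF17 reached the mutant range (log2 change 0.36, SE 0.11, adjusted p = 0.108). Ces2e, the most abundant of the 5 per transcript length, had log2 fold changes of -0.17 (adjusted p = 0.954) in the duodenum and 0.09 (adjusted p = 0.834) in the ileum.

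Among conjugating enzymes, the glutathione transferase Gstm3 (ENSMUSG00000004038) was the one that fell. Ileal Gstm3 stood at 35.8, 18.2, 21.6 and 13.9 CPM in controls and 6.68, 6.49, 5.07 and 4.65 CPM in mutants, each mutant under the lowest control (log2 change -1.98, SE 0.28, adjusted p = 0.00512). It was called in all 8 fits that left out 1 library. Duodenal Gstm3 stood at 415, 573, 235 and 167 CPM in controls and 96.4, 107, 66.6 and 68.1 CPM in mutants, separated as well (log2 change -2.04, SE 0.38, adjusted p = 0.0726), and passed without control NF152, the lowest control (adjusted p = 0.0200).

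Gstm1, the other mu-class transferase, was separated in the duodenum only: 241, 349, 141 and 129 CPM in controls and 89.7, 79.9, 42.8 and 53.6 CPM in mutants (log2 change -1.70, SE 0.37, adjusted p = 0.130). In the ileum its log2 fold change was -0.31 (SE 0.18, adjusted p = 0.450). The alpha-class genes overlapped in both tissues: Gsta4, which clears toxic aldehydes from lipid peroxidation, had -0.64 (adjusted p = 0.732) in the duodenum and -0.62 (adjusted p = 0.195) in the ileum, and Gsta1 had -0.70 (adjusted p = 0.596) and 0.12 (adjusted p = 0.923). The glucuronosyltransferase Ugt2b34 had -0.48 (adjusted p = 0.619) in the duodenum and -0.14 (adjusted p = 0.666) in the ileum. The sulfotransferase Sult1b1, which acts on thyroid hormones and phenols, had -0.29 (adjusted p = 0.846) and -0.27 (adjusted p = 0.530).

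Of the other oxidoreductases, Aldh1a1 (ENSMUSG00000053279), which makes retinoic acid from retinaldehyde, fell in the ileum. Its controls held 465, 189, 341 and 363 CPM and its mutants 149, 189, 163 and 156 CPM. Mutant NFVCT38 lay just above control NF29 by the scaling over 16 libraries and just below it by that of the ileal test (log2 change -1.05, SE 0.22, adjusted p = 0.0385), and the call was lost in 6 of the 8 fits that left out 1 library, all but those without NF17 or NF29, with an adjusted p of up to 0.123. Duodenal Aldh1a1 ranged over 249, 616, 124 and 309 CPM in controls and 205, 206, 152.96 and 82.9 CPM in mutants, which overlap (log2 change -1.02, SE 0.49, adjusted p = 0.646). The quinone reductase Nqo1 had log2 fold changes of -0.29 (adjusted p = 0.702) in the duodenum and -0.16 (adjusted p = 0.723) in the ileum, and the alcohol dehydrogenase Adh1 -0.10 (adjusted p = 0.958) and 0.16 (adjusted p = 0.902). Akr1b8, an aldo-keto reductase, had 0.48 (adjusted p = 0.948) in the duodenum, where mutant NFVCT38 stood at 84.6 CPM and the other 7 libraries at 6.72 to 28.6 CPM, and -0.38 (adjusted p = 0.719) in the ileum. Without NFVCT38 the duodenal value turned to -0.62 (adjusted p = 0.938).

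Efflux pumps Abcb1a (P-glycoprotein, ENSMUSG00000040584) and Abcg2 (breast cancer resistance protein, ENSMUSG00000029802), which return drugs from enterocytes to the gut lumen, fell in the ileum. Ileal Abcb1a stood at 672, 337, 629 and 595 CPM in controls and 234, 217, 135 and 301 CPM in mutants, or 39.7% of the control mean without overlap (log2 change -1.34, SE 0.28, adjusted p = 0.0418). The Abcb1a call was lost in 5 of 8 fits, those without control NF17, NF32 or NF152 or without mutant NFVCT27 or NFVCT38, with an adjusted p of up to 0.120. Ileal Abcg2 stood at 479, 460.0, 399 and 534 CPM in controls and 316, 373, 296 and 284 CPM in mutants (log2 change -0.57, SE 0.12, adjusted p = 0.0169). Abcg2 was called in all 8 fits that left out 1 library, but not when scaled to epithelial markers (log2 fold change -0.35, adjusted p = 0.130).

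In the duodenum the pumps overlapped between genotypes, with log2 fold changes of -0.65 (adjusted p = 0.530) for Abcb1a and -0.13 (adjusted p = 0.958) for Abcg2. Abcc2 (MRP2), which exports conjugates, overlapped in both tissues, with -0.22 (adjusted p = 0.892) in the duodenum and 0.09 (adjusted p = 0.900) in the ileum.

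The 2 nuclear receptors did not pass the test in either tissue. Duodenal Nr1i2 (PXR) stood at 119, 143, 110.1 and 122 CPM in controls and 167, 139, 114 and 80.6 CPM in mutants (log2 change 0.00, SE 0.19, adjusted p = 0.999). Ileal Nr1i2 stood at 78.5, 61.3, 69.0 and 67.1 CPM in controls and 78.6, 82.2, 49.4 and 74.8 CPM in mutants (log2 change 0.04, SE 0.14, adjusted p = 0.939). The mutants surrounded the controls in both tissues, so that no shift was detectable at this spread. Nr1i3 (CAR) had log2 fold changes of 0.05 (SE 0.14, adjusted p = 0.980) in the duodenum and -0.36 (SE 0.29, adjusted p = 0.618) in the ileum. Receptor activity was not measured.

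Whether the genotype effect differed between tissues was tested as an interaction over all 16 libraries, ileum minus duodenum. The main fit did not pair the tissues of each mouse. None of the 32 members passed (edgeR), where 0.0441% of 15882 genes did (0.0378% higher and 0.0063% lower in the ileum). At an unadjusted p under 0.05 there were 6 members, Cyp2d9 among them, against 4.41% of all genes. The smallest p-values belonged to Ces2c (1.73, SE 0.36, adjusted p = 0.192), Ces1f (-1.22, SE 0.27, adjusted p = 0.192) and Cyp2d9 (4.87, SE 1.22, adjusted p = 0.314). The ileal effect was the more negative for Ces1f and the more positive for Ces2c. Cyp2d9 had 13 counts in duodenal controls, 6 in duodenal mutants and 11 in ileal controls, against 98 in ileal mutants. It entered these fits through the group where it is high, so its values here and with DESeq2 below are description only. With the animal as a block, which pairs the tissues of each mouse, Ces1f passed (log2 difference -1.21, adjusted p = 0.0109) while Ces2c did not (1.73, adjusted p = 0.101). The blocked fit called 16 genes in all where the unblocked one called 7. DESeq2's Wald test called Ces1f, Ces2c and Cyp2d9, with adjusted p of 0.0109, 0.00148 and 0.0209, and limma-voom called no member. Of all 15882 genes, DESeq2's Wald test called 38 and limma-voom 8. For Cyp2c55, which fell in both tissues, the difference was -1.04 (SE 0.997, adjusted p = 0.99999).

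Control mice gave the levels at both sites without the deletion. Between control ileum and control duodenum, 23 of 30 members tested were called, where 35.9% of 14976 genes were. This fit did not pair the 2 tissues of each mouse. With the animal as a block, 24 members were called. In the ileum 21 were lower, as were 18.7% of all genes, and 2 were higher, as were 17.1%. The median log2 difference over the 30 was -1.58, against 0.01 over all genes. All 6 conjugating enzymes and both receptors were lower in the ileum, as were 8 of 10 cytochromes and 2 of 5 carboxylesterases.

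**Figure D3:**
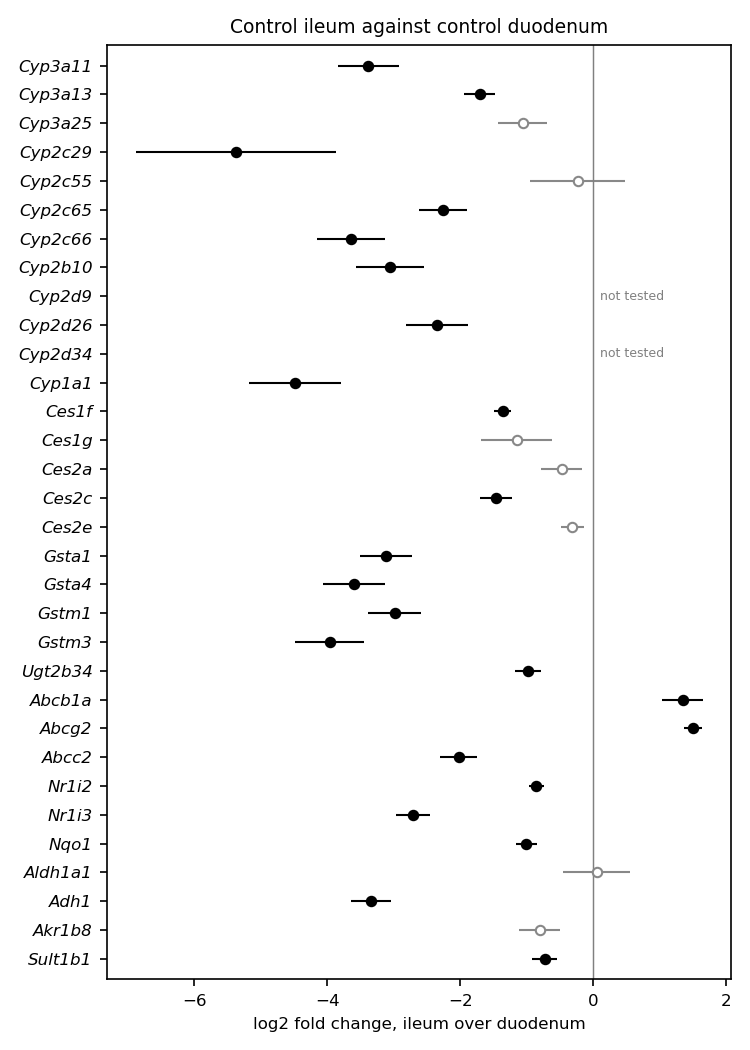
Log2 fold change of control ileum over control duodenum for each gene (points) with its standard error (bars), 4 libraries per tissue from the same 4 mice; filled points passed the test at an adjusted p under 0.05. Most filled points lie left of 0, with Abcb1a at 1.34 and Abcg2 at 1.49 as the filled points to the right.

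The largest such differences were those of Cyp2c29 (-5.37, SE 1.51, adjusted p = 0.0350), Cyp1a1 (-4.48, SE 0.69, adjusted p = 0.00324), followed by Gstm3 (-3.96, SE 0.52, adjusted p = 0.00139). Cyp2c29 lost its call whenever any 1 mouse was left out (adjusted p up to 0.122). Also lower in the ileum were Cyp3a11 at -3.38 (SE 0.46, adjusted p = 0.000864), Adh1 at -3.34 (SE 0.30, adjusted p = 2.54e-05) and Nr1i3 at -2.71 (SE 0.25, adjusted p = 2.18e-05). The pumps ran the other way, Abcg2 at 1.49 (SE 0.14, adjusted p = 3.19e-06) and Abcb1a at 1.34 (SE 0.31, adjusted p = 0.00899), while Abcc2 was lower in the ileum (-2.03, adjusted p = 0.000432). Abcb1a lost its call without NF17, NF32 or NF152 (adjusted p up to 0.0845). Cyp2c55 (-0.24, SE 0.72, adjusted p = 0.824), Ces2a (-0.47, SE 0.31, adjusted p = 0.274), Ces2e (-0.32, SE 0.17, adjusted p = 0.169) and Aldh1a1 (0.05, SE 0.51, adjusted p = 0.949) did not pass. These differences use the control libraries that also enter the genotype tests, so the comparisons are not independent.

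Levels of different genes were compared per kilobase of transcript, using the longest GENCODE M21 transcript. In duodenal controls Cyp3a11 led with 623 ± 384 CPM per kb, followed by Adh1 (606 ± 93), Cyp3a13 (505 ± 209), Gsta4 (479 ± 247) and Ces2e (426 ± 77); each differed from the next by less than their SDs over 4 libraries, while Adh1 stood above Ces2e by more than theirs. In duodenal mutants Adh1 was first (571 ± 80 CPM per kb) and Cyp3a11 at rank 10 with 70.1 ± 56.7. In ileal controls the order began with Ces2e (346 ± 58 CPM per kb), Ugt2b34 (159 ± 26), Cyp3a13 (156 ± 18), Aldh1a1 (144 ± 48) and Abcb1a (112 ± 30). Ces2e stood above the rest by more than these SDs, and the next 4 did not differ beyond theirs. Cyp2c55 was at rank 22 in duodenal controls (48.0 ± 16.8 CPM per kb) and rank 15 in ileal controls (41.0 ± 27.3), and at ranks 29 and 28 in the mutants. Cyp2d9 and Cyp2d34 took the last places in duodenal controls, at or under 0.127 CPM per kb.

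A wider list of 187 other genes of drug handling was read from the same fits. In the duodenum 1 of 138 tested was called, the glucuronosyltransferase Ugt1a1, which conjugates bilirubin and fell by 0.64 (SE 0.11, adjusted p = 0.0378); Ugt1a genes share exons, so its counts are uncertain. The share called over all genes there was 0.394%. The median over the 138 was -0.10. In the ileum 8 of 131 were called, 4 in each direction, with a median of -0.04, where 3.28% of all genes were called. The oxidases Cyp2u1 (1.87, SE 0.20, adjusted p = 0.000865) and Cyp2j6 (1.23, SE 0.13, adjusted p = 0.000104) rose, as did thioredoxin Txn1 (0.63, adjusted p = 0.0359) and malic enzyme Me1 (2.24, SE 0.24, adjusted p = 0.000894). Monoamine oxidase Maoa (-0.71, adjusted p = 0.0147), the aldo-keto reductase Akr1c19 (-1.85, adjusted p = 0.0262), the carnitine transporter Slc22a5 (-0.66, adjusted p = 0.00624) and the prostaglandin transporter Slco2a1 (-0.71, adjusted p = 0.0174) fell. None of 142 passed the test of a difference between tissues (edgeR; 14 had an unadjusted p under 0.05, against 4.41% of all genes). Of 19 sensors and their partners, a list that holds Ahr, Nfe2l2 (NRF2), Rxra and Hnf4a, none was called in either tissue (edgeR), with 2 of 19 in the duodenum and 4 of 18 in the ileum at an unadjusted p under 0.05, where 8.71% and 15.8% of all genes were. In control ileum 16 of 138 genes of the wider list were higher and 74 lower than in control duodenum, where 17.1% of all genes were higher and 18.7% lower.

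Several of these genes have close copies, which makes their counts uncertain. In the GENCODE M21 transcripts, 50-base windows found also in another gene made up at least 10% of the transcript for 13 members and at least 20% for 9, while 7 members shared none. Gsta1 shared 89.7%, mostly with Gm3776, Ces2c 42.2%, mostly with Ces2d-ps, Cyp2d9 29.04%, Gstm3 28.8% and Cyp3a25 26.8%. Ces2a shared 22.2%, Abcb1a 16.98% and Cyp2d34 13.7%. Cyp2c55 shared 0.514%, Ces1f 1.60%, Ces1g 1.67% and Abcg2 none, so the falls of these genes concern nearly unique sequence.

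**Figure D4:**
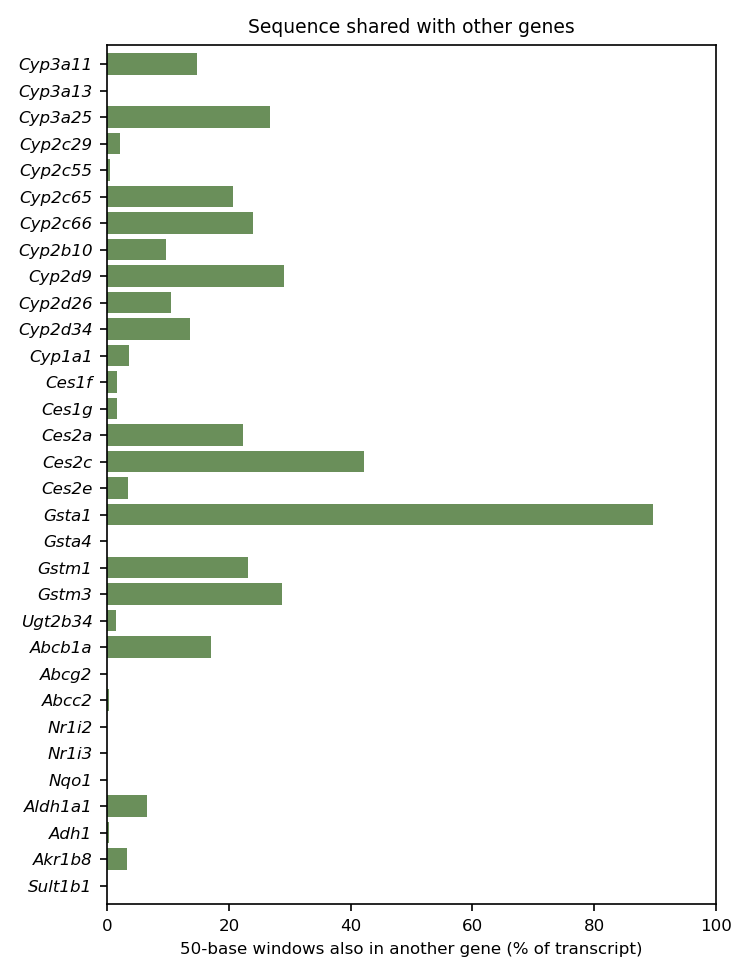
Share of each gene's 50-base transcript windows that also occur in another gene, in percent of the windows of its longest transcript (bars from 0). Gsta1 stands at 89.7%, 9 genes reach 20%, and Cyp2c55, Ces1f, Ces1g and Abcg2 are under 2%.

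Sums over a family do not depend on how counted reads were split among the genes summed. Pseudogenes and copies named outside the family, such as Ces2d-ps and Gm3776, were left out of the sums. How reads were split with those copies can still move the sums. The sum of 15 Cyp2c genes ran from 538 to 1287 CPM in duodenal controls and from 156 to 396 CPM in duodenal mutants. The sum of 7 Gstm genes ran from 438 to 1126 CPM and from 204 to 342 CPM, and that of 9 Cyp3a genes from 2081 to 5512 CPM and from 557 to 1920 CPM. Each of these sums was separate between genotypes in the duodenum. The other 4 families overlapped there: Ces2 genes ran from 1333 to 2403 CPM in controls and 653 to 1696 CPM in mutants, Ces1 genes from 359 to 535 and 249 to 419 CPM, Cyp2d genes from 194 to 494 and 119 to 300.5 CPM, and Gsta genes from 246 to 879 and 240 to 446 CPM. In the ileum the 8 Ces1 genes summed to 173 to 210.1 CPM in controls and 69.9 to 95.1 CPM in mutants, again separate. Ileal sums of Cyp2c, Cyp3a, Ces2 and Gstm genes overlapped: Ces2 genes, for instance, ran from 988 to 1385 CPM in controls and from 1068 to 1391 CPM in mutants, although Ces2a fell.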

How the data were processed

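RNA was measured in 16 libraries, 4 per tissue and genotype. Per the labels' protocols, libraries were stranded and made from ribosomal RNA-depleted total RNA. Tools named in the submitters' processing notes, in no stated order, are STAR 2.5.3a, HTSeq 0.6.1p1, Bowtie2 2.2.8, cutadapt 1.10 and bcl2fastq 2.20.0.422, with the build mm39. Whether counting used strand, and which annotation release, is not given in the sources used here. The authors deposited unnormalised read counts per Ensembl gene, per the file headers and values. Symbols matched 52083 of 55359 identifiers, which hold 98.3% of all counts.

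From these counts, genes were filtered by group with edgeR's default, scaled by TMM and tested with the quasi-likelihood F test (edgeR 4.0.16, R 4.3.3, robust prior), on the 8 libraries of each tissue, on all 16 for the interaction and on the 8 control libraries for the tissues. Benjamini-Hochberg adjustment ran over all genes tested, with calls under 0.05; the SE is the absolute log2 fold change over the square root of F. CPM values come from TMM over all 16 libraries and the tests use the scaling of their own libraries. The prior count of fitted fold changes was 0.125. Marker scores are mean log2 CPM (prior count 2), compared by exact permutation tests, two-sided. Alternatives were DESeq2 1.42.0, limma-voom (limma 3.58.1), DESeq2 size factors, no filter, marker scores as covariates, the animal as a block and leaving out each library or animal. Scaling to epithelial markers was added after the data were seen. The pipeline was tested on simulated data. No 2 libraries of a group agreed within sampling noise.

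Same-animal libraries come from the same mouse, which sets the pairing; deviations from group means correlated within an animal at 0.136 to 0.409 (at most 0.252 with another animal), and 7 of 8 animals correlated best with themselves. The members and the lists were chosen with earlier results of these data known. All members could be named; of the wider list, genes called by genotype were named, up to 10 of smallest p each way per tissue. Promoter sequences are from RefSeq on GRCm38.p6 and transcript lengths from GENCODE M21; neither is the build of the counts, so no gene coordinates are given.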

Additional observations from a re-analysis of the deposited data

Results flagged for a closer look

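Among 120 groups of 4 libraries with a mean of at least 1 CPM, 9 held a library far from the other 3 by Dixon's test at its 95% critical value; chance alone marks about 1 in 20 groups. In duodenal controls NF29 was the highest library for Abcb1a (358 CPM), Cyp2c29 (128 CPM) and Cyp3a13 (2415 CPM). In ileal controls NF152 was the highest for Ces1g (19.0 CPM) and NF17 for Ces2c (138 CPM). In ileal mutants NFVCT38 was the highest for Cyp2c65 (64.2 CPM) and Cyp2c66 (7.42 CPM), and NFVCT27 the lowest for Cyp2d26 (45.3 CPM) and Cyp2d9 (0.921 CPM).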

How the results depend on the processing

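No called value changed sign under any alternative run. In the duodenum the 58 genes and 1 member called became 310 and 11 with DESeq2's Wald test and 94 and 7 scaled to epithelial markers; limma-voom called 2 members, and 169 genes were called with no filter on low counts. Leaving out 1 library gave 27 to 61 genes (28 without control NF17, 38 without control NF29 and 27 without mutant NFVCT38) and 0 to 2 members. In the ileum the 490 genes became 875 with DESeq2's Wald test, 1096 with no filter, 22 with the smooth muscle score as covariate and 1338 scaled to epithelial markers (1186 of them higher, against 264 of 490). Leaving out 1 library gave 272 to 472 genes (293 without control NF17, 277 without control NF32, 272 without mutant NFVCT38). The 10 ileal members became 3 with the smooth muscle covariate and 7 to 13 when 1 library was left out. For the difference between tissues, the 7 genes became 38 with DESeq2's Wald test, 15 with no filter and 16 with the replicate block of the animal, and 1 to 9 when 1 animal was left out. The members called there were 3 with DESeq2's Wald test and 1 with the block. For the control tissues, the block gave 24 members and 5897 genes against 23 and 5372, and leaving out 1 animal gave 3443 (without NF17) to 4787 genes. The causes were not tested. No paired fit was possible within a tissue, because no animal entered both genotypes. Depth limited Cyp2d9, Cyp2d34 and ileal Cyp2c29, which rest on few counts.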
